A study of Danio rerio with 15 samples.

Results

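Described here are 9 zebrafish genes, mdm2, cdkn1a, tp53inp1, eif4ebp3l, ccng1, gadd45aa, bbc3, sesn1 and phlda3, which are targets of p53 or restrain growth. They were taken as the entries of the raw count table with exactly these symbols, 9 of 47048 gene entries. All 9 passed the filter on low counts and were among the 23874 entries tested. The entries mdm2_1 and ccng1_1, which carry a numbered suffix after the same stem, are shown apart.

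The transcription factor p53 is held low in unstressed cells by Mdm2, a ubiquitin ligase whose own gene is a p53 target, so that p53 and Mdm2 form a negative feedback loop. When DNA damage or another stress stabilises p53, it raises genes that stop the cell cycle, aid DNA repair, lower growth signalling or start apoptosis. In zebrafish embryos, transcripts such as mdm2, cdkn1a and ccng1 are common readouts of p53 activity.

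The RNA came from whole wild-type embryos of the Tropical 5D line, pooled by 10 for each library, with 3 libraries in each of 5 groups. Dechorionated embryos were kept from 8 to 48 hours post fertilization in 47 uM of FBSA (perfluorobutane sulfonamide), PFBS (perfluorobutane sulfonic acid), PFPeA (perfluoropentanoic acid) or 42FTS (4:2 fluorotelomer sulfonic acid), or in 0 uM as Control. Every group, Control included, was in 0.5% methanol. FBSA and PFBS share the perfluorobutyl chain and differ in the head group, a sulfonamide in FBSA and a sulfonic acid in PFBS; 42FTS has an ethyl spacer between that chain and the sulfonic acid, and PFPeA ends in a carboxylic acid. The title of the series places its question on the head group. Whole embryos were sequenced, so fewer cells of a type and less RNA per cell cannot be told apart.

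Gene counts per library ranged from 24249287 to 32686343. Control 3 and 42FTS 2 were the shallowest, at 24552649 and 24249287, with 9.92% and 9.94% of their reads not aligned against 6.32% to 6.73% in the other 13 libraries. A pair of PFBS columns had the same header, so these libraries are called PFBS a and PFBS b, and the third is PFBS 2. Nothing in the labels ties the pools to separate clutches, and a p-value here reflects variation among pools, which may be technical. PFPeA 1 and 42FTS 2 stood apart from the other libraries of their groups in inflammation genes and in several members. Levels are read counts relative to library size (CPM) scaled by the trimmed mean of M-values (TMM), and differences are log2 fold changes with a standard error (SE), from edgeR's quasi-likelihood test over all 15 libraries. A gene was called at an adjusted p under 0.05, with the Benjamini-Hochberg adjustment over all entries tested. In bulk embryo RNA the muscle marker list summed to 60876 to 68426 CPM with FBSA and to 67245 to 67434 CPM in Control.

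Of the 9 genes, 4 were higher with FBSA than in Control: eif4ebp3l, tp53inp1, gadd45aa and sesn1. No member was lower. An unadjusted edgeR p under 0.05 was found for 5 of 9 members and for 5656 of the 23874 entries tested. Among all entries, 5.28% were called higher, 4.25% lower and 9.53% in either direction. The median log2 fold change was 0.58 over the members and 0.01 over all entries. The calls of eif4ebp3l and tp53inp1 held under all 25 alternative settings of this comparison. The p53 readouts mdm2 (log2 fold change 0.88, SE 0.46), cdkn1a (0.71, SE 0.37) and ccng1 (0.15, SE 0.58) did not pass the test. All 3 FBSA libraries lay above all 3 Control libraries in 5 of 9 members, against 14.5% of all entries (the share below all Control libraries was 13.5%). The members, and the gene lists that follow, were chosen with earlier results of these data known. Their counts and medians beside those of all entries are therefore descriptive and no test of enrichment.

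**Figure D1:**
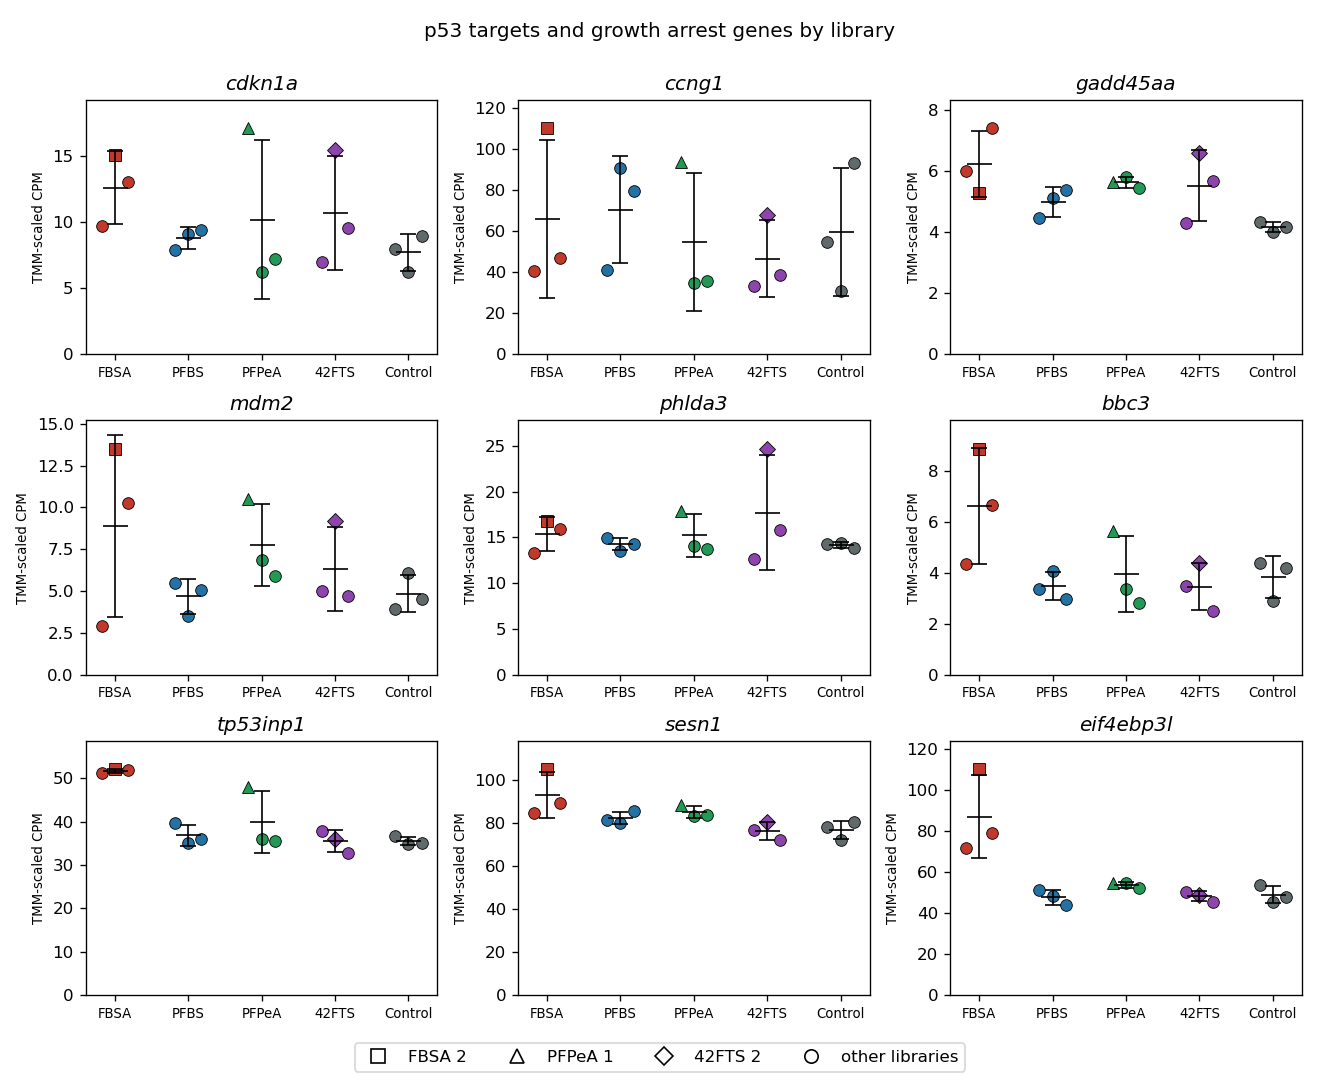
TMM-scaled CPM of the 9 members in each of the 15 libraries, one panel per gene, with groups on the x axis and the mean ± SD of 3 libraries as bars; the square is FBSA 2, the triangle PFPeA 1 and the diamond 42FTS 2. The FBSA libraries of tp53inp1 and eif4ebp3l sit above every other library, while in cdkn1a PFPeA 1 and 42FTS 2 lie above all FBSA libraries.

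Feedback comes first, with mdm2, which encodes the ligase that marks p53 for degradation. It had 2.92, 13.5 and 10.3 CPM with FBSA, 5.50, 3.52 and 5.09 CPM with PFBS (a, 2 and b), 10.5, 6.86 and 5.88 CPM with PFPeA, 5.03, 9.19 and 4.73 CPM with 42FTS, and 3.91, 6.09 and 4.53 CPM in Control. FBSA 1 was the lowest of all 15 libraries and FBSA 2 the highest, so the FBSA group spanned the Control group on both sides. The mean was 8.91 ± 5.43 CPM with FBSA and 4.85 ± 1.12 CPM in Control (SD, n = 3 each), a log2 fold change of 0.88 (SE 0.46, 95% interval -0.13 to 1.89, edgeR adjusted p = 0.284). Without FBSA 1 the value was 1.29 and passed the test (edgeR adjusted p = 0.0247). Under the other 24 of 25 alternatives mdm2 did not pass (adjusted p up to 0.698).

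The entry mdm2_1 carried most of the counts of the pair, 67.2% to 90.2% per library. It had 26.9, 27.8 and 21.1 CPM with FBSA and 17.5, 27.4 and 22.3 CPM in Control, and these ranges overlap. Its log2 fold change was 0.17 (SE 0.16, edgeR adjusted p = 0.575). Added together, the pair spanned 21.3 to 41.4 CPM and gave 0.33 for FBSA against Control (SE 0.19, edgeR adjusted p = 0.313). The highest library of mdm2 alone was 4.63 times the lowest, and for the summed pair this ratio was 1.94. The sum is mostly mdm2_1, so its lower ratio cannot show whether the entries share reads. Reads can be split between such entries, so the level of mdm2 alone is uncertain.

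Cell cycle arrest is represented by cdkn1a, ccng1 and gadd45aa. The gene cdkn1a encodes p21, an inhibitor of cyclin-dependent kinases. It had 9.68, 15.1 and 13.1 CPM with FBSA, 7.89, 9.13 and 9.41 CPM with PFBS, 17.1, 6.23 and 7.20 CPM with PFPeA, 7.02, 15.5 and 9.58 CPM with 42FTS, and 7.95, 6.21 and 8.99 CPM in Control. All FBSA libraries lay above all Control libraries, and the 2 highest libraries of the whole series were PFPeA 1 and 42FTS 2. The mean was 12.6 ± 2.74 CPM with FBSA and 7.72 ± 1.40 CPM in Control (SD, n = 3 each), a log2 fold change of 0.71 (SE 0.37, 95% interval -0.09 to 1.52, edgeR adjusted p = 0.275). With PFPeA 1 and 42FTS 2 left out of the shared estimate of the spread, the value stayed at 0.71 and passed the test (edgeR adjusted p = 0.0314). The other 24 of 25 alternatives did not call cdkn1a (adjusted p up to 0.545).

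The gene gadd45aa encodes a small protein that, in mammals, is induced by DNA damage and slows entry into mitosis. It had 6.03, 5.29 and 7.42 CPM with FBSA, 4.46, 5.14 and 5.39 CPM with PFBS, 5.65, 5.82 and 5.46 CPM with PFPeA, 4.31, 6.62 and 5.68 CPM with 42FTS, and 4.34, 4.02 and 4.17 CPM in Control. The Control libraries lay below every library with a compound except 42FTS 1, which fell between them. It was 0.58 higher with FBSA than in Control on the log2 scale (SE 0.17, 95% interval 0.22 to 0.94, edgeR adjusted p = 0.0446). That call was lost under 18 of 25 alternatives, where values over all 25 stayed between 0.44 and 0.69 and adjusted p between 0.0208 and 0.164; it was lost without FBSA 1 (0.60, adjusted p = 0.07), FBSA 3 (0.44, adjusted p = 0.164), Control 1 (0.61, adjusted p = 0.093), Control 2 (0.55, adjusted p = 0.127) or Control 3 (0.58, adjusted p = 0.106), and without any 1 of 7 libraries of the other compounds (0.58 in each, adjusted p = 0.0513 to 0.0584). The differences with PFPeA and 42FTS, 0.43 and 0.40, had unadjusted p of 0.0229 and 0.0328 and did not pass after adjustment.

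The gene ccng1 encodes cyclin G1, which in mammals feeds back on Mdm2. It had 40.5, 110.2 and 47.0 CPM with FBSA, 41.2, 90.8 and 79.7 CPM with PFBS, 93.7, 34.6 and 35.9 CPM with PFPeA, 33.3, 68.1 and 38.7 CPM with 42FTS, and 54.6, 30.9 and 93.0 CPM in Control. High and low libraries were found in every group, so the groups overlapped throughout. Its log2 SD within groups was 0.72, the widest of the members, beside a median of 0.25 over all entries tested. FBSA against Control gave 0.15 (SE 0.58, 95% interval -1.13 to 1.43, edgeR adjusted p = 0.916), and the sign turned to -0.44 without FBSA 2 and to -0.16 without Control 2. The entry ccng1_1 held 1.72% to 11.9% of the pair's level in a library. The highest library was 3.56 times the lowest for ccng1 alone and 3.30 times the lowest for the summed pair.

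**Figure D2:**
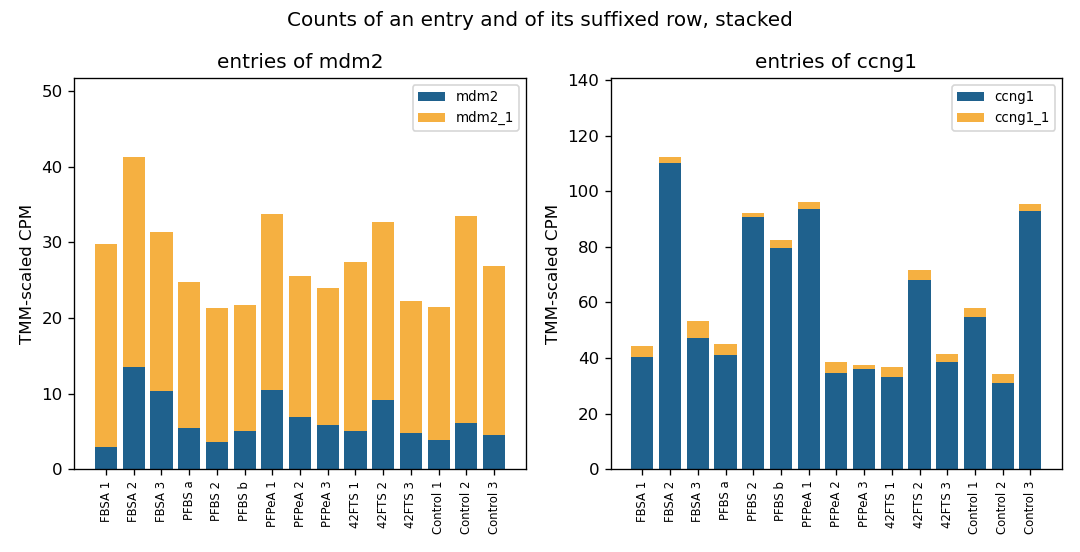
Stacked TMM-scaled CPM of an entry and its suffixed copy in each of the 15 libraries, for mdm2 and ccng1. The copy mdm2_1 forms most of the mdm2 bar in every library, ccng1_1 is a thin part of the ccng1 bar, and the ccng1 bars differ by library within every group.

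Apoptosis and survival are represented by bbc3, phlda3 and tp53inp1. The gene bbc3 encodes Puma, a BH3-only protein that triggers mitochondrial apoptosis downstream of p53. It had 4.35, 8.89 and 6.67 CPM with FBSA, 3.36, 4.09 and 3.00 CPM with PFBS, 5.65, 3.38 and 2.83 CPM with PFPeA, 3.48, 4.37 and 2.52 CPM with 42FTS, and 4.40, 2.89 and 4.21 CPM in Control. FBSA 2 and FBSA 3 lay above all libraries of the other groups, and FBSA 1 lay inside the Control range. The log2 fold change was 0.79 (SE 0.30, 95% interval 0.15 to 1.43, edgeR adjusted p = 0.116), and it passed the test without FBSA 1 (1.02, edgeR adjusted p = 0.0495). Under the other 24 of 25 alternatives bbc3 did not pass (adjusted p up to 0.420).

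The gene phlda3 encodes a pleckstrin homology domain protein that competes with Akt for membrane lipids in human cells. It had 13.3, 16.8 and 16.0 CPM with FBSA, 14.9, 13.6 and 14.3 CPM with PFBS, 17.9, 14.0 and 13.7 CPM with PFPeA, 12.6, 24.7 and 15.8 CPM with 42FTS, and 14.3, 14.4 and 13.8 CPM in Control. The highest library was 42FTS 2, followed by PFPeA 1, and FBSA 1 lay below all Control libraries. FBSA against Control gave 0.12 (SE 0.19, 95% interval -0.28 to 0.52, edgeR adjusted p = 0.772).

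The gene tp53inp1 encodes a stress protein that in mammals promotes p53 phosphorylation and autophagy. It had 51.2, 52.1 and 51.8 CPM with FBSA, 39.6, 35.0 and 36.0 CPM with PFBS, 48.0, 36.0 and 35.6 CPM with PFPeA, 37.8, 35.9 and 32.7 CPM with 42FTS, and 36.7, 34.8 and 35.1 CPM in Control. The FBSA libraries were within 1 CPM of each other and above all others, and PFPeA 1 came next. The group means were 51.7 ± 0.466 CPM with FBSA, 39.9 ± 7.06 with PFPeA, 36.9 ± 2.44 with PFBS, 35.5 ± 2.60 with 42FTS and 35.5 ± 0.988 in Control (SD, n = 3 each). The log2 fold change of FBSA against Control was 0.54 (SE 0.10, 95% interval 0.33 to 0.75, edgeR adjusted p = 0.00338). The other 4 groups did not pass a test against each other in any of their 6 pairs.

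The brakes on growth signalling are eif4ebp3l and sesn1. The gene eif4ebp3l encodes an eIF4E-binding protein, a family that holds back cap-dependent translation when TOR signalling is low. It had 72.1, 110.4 and 79.1 CPM with FBSA, 51.3, 48.4 and 44.0 CPM with PFBS, 54.6, 54.9 and 52.3 CPM with PFPeA, 50.4, 49.0 and 45.5 CPM with 42FTS, and 53.6, 45.5 and 47.9 CPM in Control. The lowest FBSA library exceeded the highest of the other 12, and PFPeA 1 did not stand apart. The means were 87.2 ± 20.4 CPM with FBSA, 54.0 ± 1.42 with PFPeA, 48.3 ± 2.49 with 42FTS, 47.9 ± 3.67 with PFBS and 49.0 ± 4.14 in Control (SD, n = 3 each). The log2 fold change of FBSA against Control was 0.83, a ratio of 1.78 (SE 0.12, 95% interval 0.57 to 1.096, edgeR adjusted p = 0.00114), and no pair among the other 4 groups passed the test.

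The gene sesn1 encodes sestrin 1, which lowers TOR complex 1 activity under stress. It had 84.5, 105.0 and 89.4 CPM with FBSA, 81.3, 80.1 and 85.4 CPM with PFBS, 88.4, 83.1 and 83.7 CPM with PFPeA, 76.8, 80.3 and 71.9 CPM with 42FTS, and 78.1, 72.0 and 80.2 CPM in Control. FBSA libraries lay above all Control libraries, but FBSA 1 lay inside the PFBS and PFPeA ranges. The log2 fold change of FBSA against Control was 0.28 (SE 0.07, 95% interval 0.12 to 0.43, edgeR adjusted p = 0.0287). The call was lost under 8 of 25 alternatives, among them without FBSA 2 (0.18, edgeR adjusted p = 0.138), without Control 1 (0.29, adjusted p = 0.0658) and without Control 2 (0.23, adjusted p = 0.119).

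**Figure D3:**
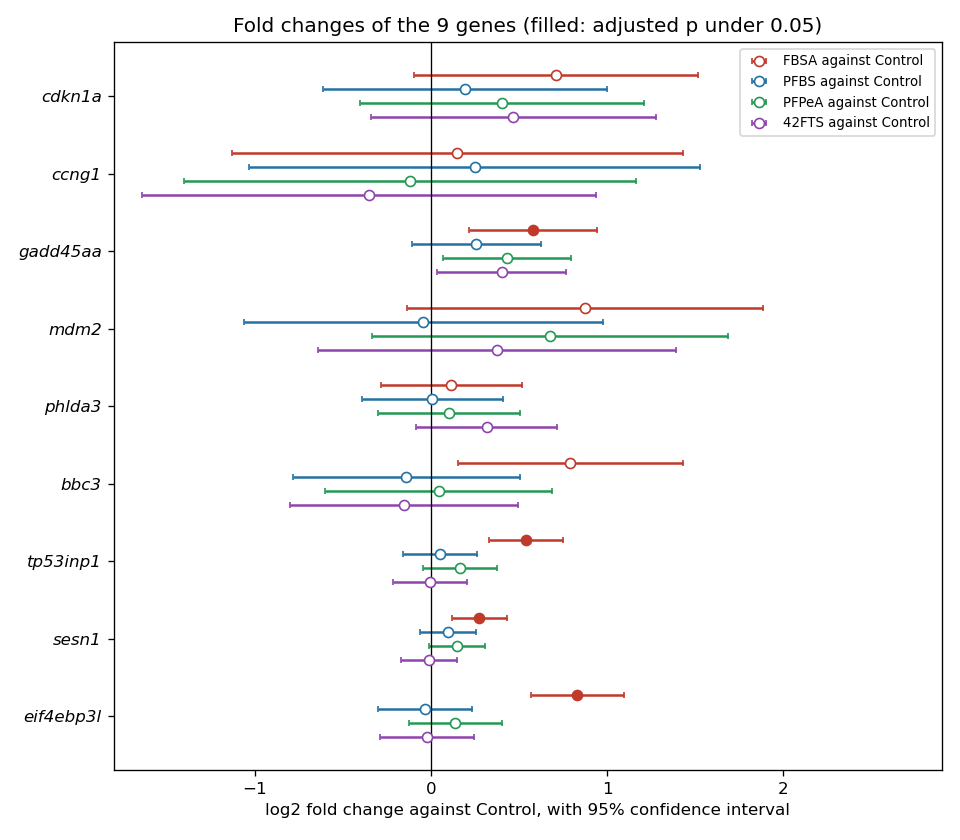
Log2 fold change of each member for FBSA, PFBS, PFPeA and 42FTS against Control, with 95% intervals; filled points passed the edgeR test at an adjusted p under 0.05. The filled points are eif4ebp3l, tp53inp1, gadd45aa and sesn1 with FBSA, and the intervals of mdm2 and ccng1 are the widest.

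Against Control, none of the 9 members passed the test with PFBS, PFPeA or 42FTS, and neither did any of the 23874 entries (0% called with each). An unadjusted edgeR p under 0.05 was found for 0 members and 925 entries with PFBS, 1 member and 1243 entries with PFPeA, and 1 member and 972 entries with 42FTS. DESeq2 called 6 entries with PFBS, 15 with PFPeA and 14 with 42FTS, none of them a member. Member medians were 0.05 with PFBS, 0.15 with PFPeA and -0.00 with 42FTS, beside 0.00, 0.01 and -0.01 over all entries. All 3 libraries lay above all Control libraries in 1 member with PFBS (gadd45aa; 4.95% of all entries), 2 with PFPeA (gadd45aa and sesn1; 5.8%) and 0 with 42FTS (4.61%), and below them in 0 members with each (4.36%, 4.89% and 5.15% of all entries). For eif4ebp3l the 95% intervals against Control were -0.30 to 0.23 with PFBS, -0.13 to 0.40 with PFPeA and -0.29 to 0.24 with 42FTS, all below the lower bound of 0.57 with FBSA. For tp53inp1 they were -0.16 to 0.26 with PFBS, -0.04 to 0.38 with PFPeA and -0.21 to 0.21 with 42FTS, so the PFPeA interval reached past the lower FBSA bound of 0.33.

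The compounds were also set against each other directly, at the same dose and time, which with the comparisons against Control made 10 pairs. Against PFBS, the sulfonic acid of the same chain, FBSA had higher eif4ebp3l (0.86, 95% interval 0.60 to 1.13, edgeR adjusted p = 0.000866) and tp53inp1 (0.49, 95% interval 0.28 to 0.70, adjusted p = 0.00574). These 2 of 9 members stood beside 5.16% of all entries called higher, 4.98% lower and 10.1% in either direction. Of the other members, bbc3 differed by 0.93 (95% interval 0.29 to 1.57, edgeR adjusted p = 0.0628, DESeq2 adjusted p = 0.0257). The entry mdm2 differed by 0.92 (95% interval -0.09 to 1.93, edgeR adjusted p = 0.248). Its larger partner mdm2_1 differed by 0.50 (95% interval 0.15 to 0.85, edgeR adjusted p = 0.0643). The summed pair differed by 0.60 (95% interval 0.18 to 1.01, edgeR adjusted p = 0.0567). The intervals of cdkn1a (-0.28 to 1.32), gadd45aa (-0.04 to 0.68) and ccng1 (-1.37 to 1.18) included 0 and also sizable differences.

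FBSA against PFPeA gave the same 2 genes, eif4ebp3l at 0.69 (95% interval 0.43 to 0.96, edgeR adjusted p = 0.00428) and tp53inp1 at 0.37 (95% interval 0.17 to 0.58, adjusted p = 0.0283), where 4.08% of all entries were higher, 4.18% lower and 8.26% called in all. FBSA against 42FTS called eif4ebp3l at 0.85 (edgeR adjusted p = 0.000955), tp53inp1 at 0.54 (adjusted p = 0.00349) and sesn1 at 0.28 (adjusted p = 0.0246), where 5.69% of entries were higher, 4.11% lower and 9.8% called in all. The sesn1 call against 42FTS was lost without FBSA 2 (0.18, adjusted p = 0.132), 42FTS 1 (0.29, adjusted p = 0.0644) or 42FTS 3 (0.24, adjusted p = 0.105). The tp53inp1 call against PFPeA was lost without FBSA 2 (0.38, adjusted p = 0.083), FBSA 3 (0.38, adjusted p = 0.0543), PFPeA 2 (0.31, adjusted p = 0.121) or PFPeA 3 (0.30, adjusted p = 0.123). As against PFBS, bbc3 differed by 0.94 against 42FTS (95% interval 0.30 to 1.59, edgeR adjusted p = 0.0616, DESeq2 adjusted p = 0.0255). Against PFPeA, bbc3 differed by 0.75 and passed neither test (edgeR adjusted p = 0.144, DESeq2 adjusted p = 0.0974).

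With the adjustment taken over all entries and the 10 pairs together, eif4ebp3l passed against PFBS (edgeR adjusted p = 0.00229), PFPeA (0.00919), 42FTS (0.00251) and Control (0.00301). Under the same adjustment tp53inp1 passed against PFBS (edgeR adjusted p = 0.0157), 42FTS (0.00855) and Control (0.00888) but not against PFPeA (0.0621). Between the 3 acids, no member and no entry passed (0% called in each pair), and the smallest adjusted p of a member was 0.723. PFPeA against PFBS spanned 95% intervals of -0.09 to 0.44 for eif4ebp3l and -0.10 to 0.32 for tp53inp1. For 42FTS against PFBS the intervals were -0.25 to 0.28 for eif4ebp3l and -0.26 to 0.15 for tp53inp1. In the test of any difference among the 5 groups, eif4ebp3l (edgeR adjusted p = 0.00152) and tp53inp1 (0.00827) were the members that passed, beside 6.38% of all entries; sesn1 (0.0884), bbc3 (0.167) and gadd45aa (0.22) did not.

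Single libraries stood out across the members. FBSA 2 was the highest library of its group in 8 of 9 members (not in gadd45aa), against 36.4% of all entries. PFPeA 1 was the highest of its group in 7 of 9 (34.7% of all entries) and 42FTS 2 in 7 of 9 (33.01%). FBSA 2 lay above all Control libraries in 9 of 9 members (33.9% of all entries), PFPeA 1 in 9 (26.3%), FBSA 3 in 8 (31.0%), FBSA 1 in 5 (30.4%) and 42FTS 2 in 5 (24.7%). The other 7 libraries with a compound lay above them in 1 to 4 of 9 members, beside 24.3% to 26.7% of all entries. These member counts use mdm2 and ccng1 without their suffixed entries. The mean log2 difference of the 9 members from the Control mean was 0.12, 0.83 and 0.55 in FBSA 1, 2 and 3, 0.58 in PFPeA 1 and 0.45 in 42FTS 2. In the other 10 libraries it lay between -0.15 and 0.12, a range that FBSA 1 just exceeded. 42FTS 2 is also 1 of the 2 shallow libraries; the part of depth in its values was not tested.

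PFPeA 1 was high in some members and inside the range of other libraries in others. In this library, cdkn1a had 17.1 CPM and mdm2 10.5 CPM, beside 6.21 to 9.58 and 3.52 to 6.86 CPM in the 10 libraries that exclude FBSA, PFPeA 1 and 42FTS 2. Summed with mdm2_1, mdm2 had 33.7 CPM in PFPeA 1, beside 21.3 to 33.5 CPM in those 10. In PFPeA 1, eif4ebp3l had 54.6 CPM, inside the 44.0 to 54.9 CPM of those 10. Standardized over the 15 libraries, the closest members were tp53inp1 and eif4ebp3l, with a root mean square difference of 0.517, and the farthest were ccng1 and gadd45aa at 1.31.

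Inflammatory transcripts were high in FBSA 2, FBSA 3, PFPeA 1 and 42FTS 2, as several members were. They were also high in FBSA 1, where the mean log2 difference of the 9 members was 0.12. The list of inflammation and acute phase genes had a mean log2 difference from Control of 0.85, 1.43 and 0.94 in FBSA 1, 2 and 3, 1.51 in PFPeA 1 and 0.95 in 42FTS 2, against -0.26 to 0.29 in the other 10 libraries. Its summed level was 882 to 1148 CPM with FBSA, 529 to 900 with PFPeA, 518 to 707 with 42FTS and 501 to 544 in Control. With FBSA, 8 of its 23 tested genes were higher and 0 lower (median log2 fold change 0.81). Among all entries 5.28% were higher and 4.25% lower (median 0.01), and the lists that follow stand beside the same shares. The largest values of called genes were il1b (3.50), irg1l (3.36) and il11a (2.85). Of these, il1b had 0.09, 0.15 and 0.16 CPM in Control and il11a 0, 0.15 and 0.24 CPM, so both values rest on levels near 0. With FBSA, il1b had 1.21, 2.41 and 1.03 CPM and il11a 1.08, 1.22 and 0.50 CPM. Macrophage and neutrophil markers summed to 183 to 223 CPM with FBSA and 160 to 168 CPM in Control, with 3 of 16 higher and 0 lower (marco 0.94, cxcr4b 0.49 and cebpa 0.41; list median 0.26). Neuronal markers summed to 3398 to 3919 CPM with FBSA and 4312 to 4399 CPM in Control, with 0 of 18 higher and 11 lower (elavl4 -0.63, tubb5 -0.45 and sv2a -0.42; list median -0.32). Of 24 muscle genes, 1 was higher and 3 lower (desma 0.81, acta1b -0.80 and acta1a -0.58; list median -0.01). Without FBSA 2 the calls of il1b (3.03, edgeR adjusted p = 0.142), il11a (2.61, adjusted p = 0.124), marco (0.57, adjusted p = 0.256) and cxcr4b (0.40, adjusted p = 0.0873) were lost. The call of cxcr4b was also lost without Control 1, and the others without some of the Control libraries. Without FBSA 1, il1b (edgeR adjusted p = 0.0606), il11a (0.0758) and cxcr4b (0.0507) were lost too, and il1b also without FBSA 3 (0.0554). Over the 25 alternatives the inflammation list had 3 to 12 genes higher, the macrophage and neutrophil list 1 to 4 higher and the neuronal list 5 to 12 lower. The part of these lists in the members' differences was not tested.

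**Figure D4:**
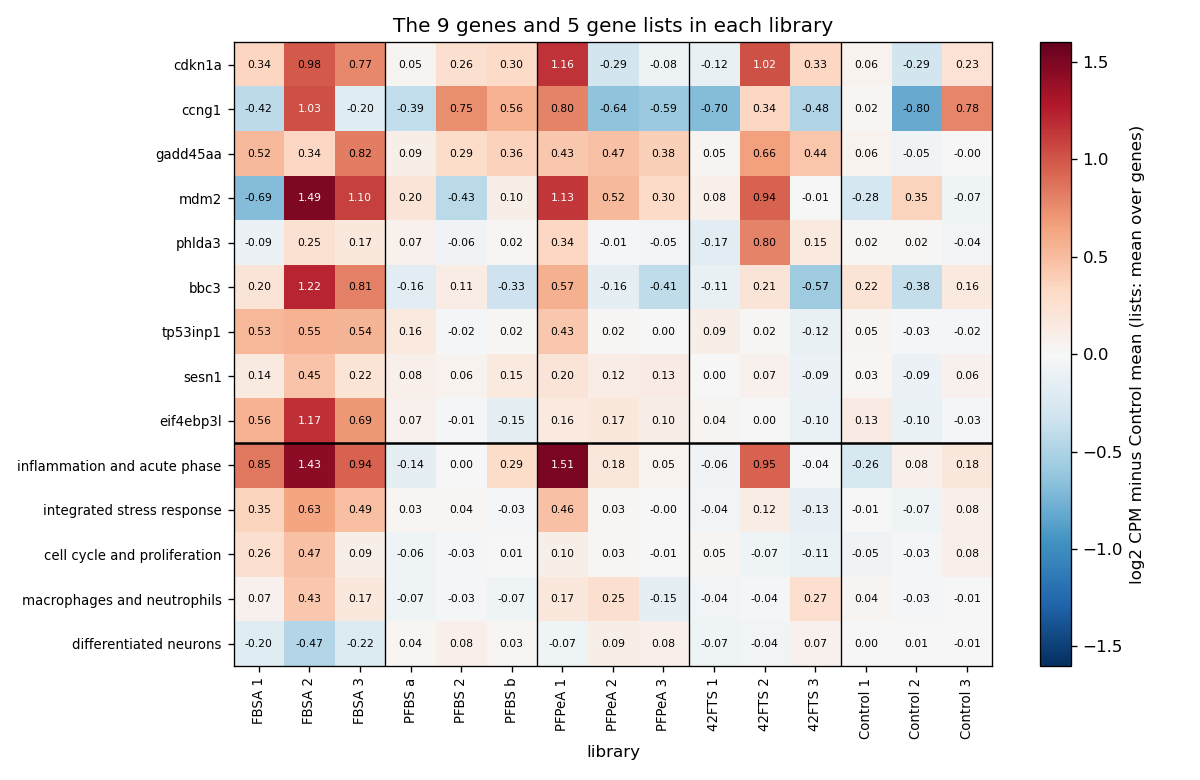
Log2 CPM minus the Control mean for the 9 members and 5 gene lists (rows) in the 15 libraries (columns, by group); list rows are means over their genes. FBSA 2, FBSA 3 and PFPeA 1 are high in most member rows, with member means of 0.83, 0.55 and 0.58. The member mean of 42FTS 2 is 0.45, but eif4ebp3l, tp53inp1 and sesn1 are near 0 in it (0.003, 0.017 and 0.065). The inflammation row is high in FBSA 2, FBSA 3, PFPeA 1 and 42FTS 2 and also in FBSA 1, where the member mean is 0.12.

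Other genes were read from 4 lists, which hold p53 regulators and targets together with other cell cycle inhibitors, TOR brakes and metabolic genes. These lists, too, were chosen with earlier results of these data known. Of their 69 tested genes, 8 were higher and 1 lower with FBSA than in Control (median log2 fold change 0.13). Among all entries 5.28% were higher and 4.25% lower (median 0.01), and each of the 4 lists stands beside these shares. A single call in a list of 14 or 16 genes is near that share. Among regulators and damage kinases, 1 of 14 was higher and 0 lower (median 0.16): tp53bp2a, which encodes a p53-binding protein of the ASPP family, at 1.07 (SE 0.27, edgeR adjusted p = 0.0303). It had 55.0, 29.9 and 38.6 CPM with FBSA and 23.7, 16.4 and 18.9 CPM in Control, and PFPeA 1 had 38.0 CPM. The call of tp53bp2a was lost without FBSA 1 (0.80, edgeR adjusted p = 0.0875), FBSA 3 (1.11, adjusted p = 0.054), Control 2 (0.95, adjusted p = 0.109) or Control 3 (1.04, adjusted p = 0.0937). The p53 inhibitor mdm4 had 57.9, 55.8 and 57.0 CPM with FBSA and 65.2, 61.1 and 64.4 CPM in Control, which do not overlap, with a log2 fold change of -0.16 (SE 0.08, edgeR adjusted p = 0.233).

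Of 16 further apoptosis genes, 1 was higher and 0 lower (median 0.17). This was perp, a p53 target that encodes a membrane protein of desmosomes, at 0.35 (SE 0.07, edgeR adjusted p = 0.00801), with 203, 232 and 196 CPM with FBSA and 159, 166 and 168 CPM in Control; PFPeA 1 had 197 CPM. The lowest value of this list, -2.69 for zmat3 (SE 0.85, edgeR adjusted p = 0.0607), did not pass, and this gene is named because its value was seen to be extreme. Of 23 further cell cycle and DNA repair genes, 5 were higher and 0 lower (median 0.35). They were the antiproliferative btg2 (0.69, edgeR adjusted p = 0.00221), the GADD45 family gene gadd45gb.1 (0.60, adjusted p = 4.02e-05), the cyclin-dependent kinase inhibitor gene cdkn1ca (0.54, adjusted p = 0.000645), the kinase gene plk3 (0.42, adjusted p = 0.0129) and the replication clamp gene pcna (0.29, adjusted p = 0.00257). The plk3 call was lost without FBSA 2 (0.33, edgeR adjusted p = 0.0667) or Control 1 (0.37, adjusted p = 0.0603). The level of btg2 was 259, 352 and 307 CPM with FBSA and 183, 200 and 186 CPM in Control. For gadd45gb.1 the means were 119.9 ± 6.71 CPM with FBSA and 79.3 ± 3.85 CPM in Control (SD, n = 3 each). The 3 FBSA libraries of pcna had 591, 659 and 595 CPM, against 495, 503 and 513 CPM in Control.

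Of 16 genes of sestrins, TOR brakes and metabolism, 1 was higher and 1 lower (median 0.07). The higher gene was sesn2, a stress-induced sestrin, with 19.0, 25.1 and 19.0 CPM with FBSA and 8.23, 8.13 and 8.51 CPM in Control, and 14.1 CPM in PFPeA 1. Its log2 fold change of 1.34 (SE 0.20, edgeR adjusted p = 0.00115) exceeded that of every member. The gene foxo3a, which encodes a forkhead factor restrained by Akt, was lower at -0.45 (SE 0.08, edgeR adjusted p = 0.00284), with 51.7, 42.5 and 56.7 CPM with FBSA and 68.0, 68.7 and 69.2 CPM in Control. Against each of the 3 acids, FBSA also had higher perp, gadd45gb.1, btg2, pcna, cdkn1ca and sesn2 and lower foxo3a. Called against 1 acid only were plk3 (higher, against PFBS), btg1 (0.32, against 42FTS), ccng2 (-0.24, against PFPeA) and usp7 (-0.15, against 42FTS). None of the 69 genes was called for PFBS, PFPeA or 42FTS against Control.

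**Figure D5:**
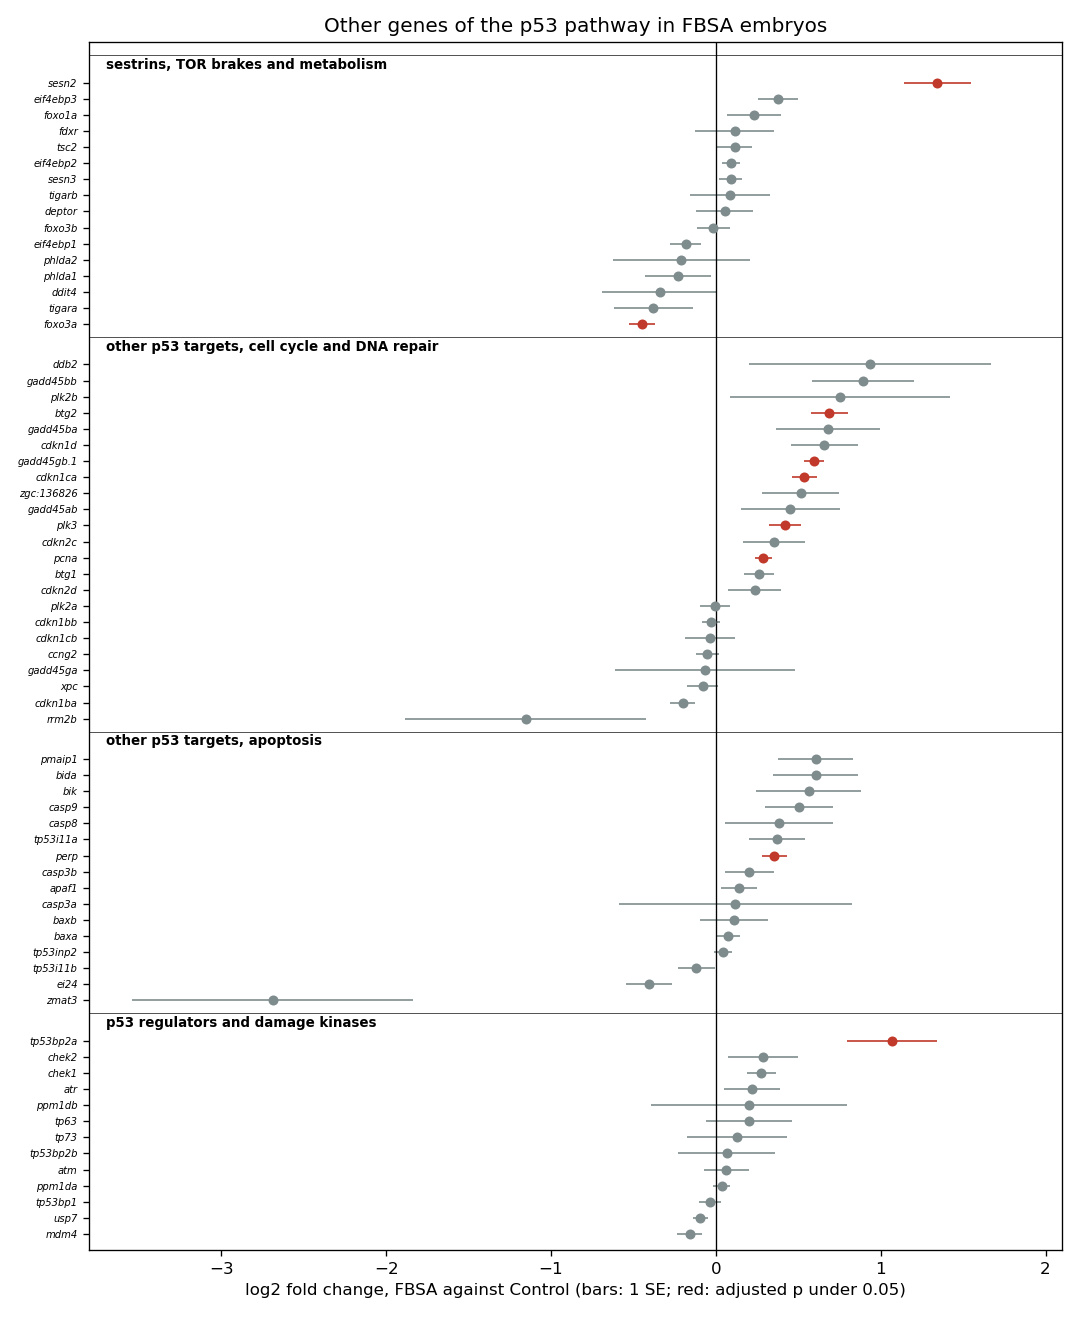
Log2 fold change of FBSA against Control for 68 genes in 4 lists of p53 pathway and growth control genes, with bars of 1 SE and the called genes in red. The called genes are tp53bp2a, perp, gadd45gb.1, btg2, plk3, pcna, cdkn1ca, sesn2 and foxo3a, and the lowest point, zmat3 at -2.69, was not called.

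In mammals, some sestrin and eIF4E-binding protein genes are also targets of the integrated stress response. ATF4 drives this programme when amino acids are short or protein folding fails. Whether sesn1 and eif4ebp3l are such targets in these embryos was not tested. Of 17 tested genes of the integrated stress response list, 9 were higher and 1 lower with FBSA (median 0.45). The largest were sesn2 (1.34), cebpb (1.03) and chac1 (0.91), and sesn2 is also on the sestrin list. The mean log2 difference of the stress response list from Control was 0.35 to 0.63 in the FBSA libraries, 0.46 in PFPeA 1, 0.12 in 42FTS 2 and -0.13 to 0.08 in the other 10. Of 28 cell cycle and proliferation genes, 17 were higher and 0 lower with FBSA (median 0.28), led by rrm2 (0.96), ccnd1 (0.58) and cdc25b (0.53), and pcna is on this list as well as among the p53 targets. Both lists stand beside 5.28% of all entries higher and 4.25% lower (median 0.01). The cebpb and rrm2 calls were lost without FBSA 2 (0.85, edgeR adjusted p = 0.142, and 0.94, adjusted p = 0.0543), and each was also lost without some of the Control libraries. The cebpb call was lost without FBSA 3 as well (1.06, edgeR adjusted p = 0.0657). Over the 25 alternatives the stress response list had 8 to 10 genes higher and the proliferation list 8 to 19. Their part in the members' differences was not tested.

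Entries whose standardized profiles lay nearest to a member were sought among 16465 entries of at least 1 CPM. Nearest to eif4ebp3l were oclna, ildr1a and cldne, at root mean square differences of 0.230, 0.238 and 0.244; oclna and cldne encode the tight junction proteins occludin and claudin. Nearest to tp53inp1 were raf1b, pnpla3 and mex3b (0.289, 0.307 and 0.314). Nearest to cdkn1a were nfkbiab, cxcl18b and si:ch211-74m13.3 (0.449, 0.463 and 0.482), of which the first encodes an inhibitor of NF-kB and the second a chemokine. Nearest to mdm2 were si:dkey-14o18.6, junbb and tpcn2 (0.508, 0.554 and 0.573). The nearest entries were si:ch211-212o1.2, tmcc3 and htatip2 for ccng1, rgs5b, itpka and rasgef1bb for gadd45aa, LOC798783, arrdc2 and irs2a for bbc3, pik3ip1, LOC794425 and rac1a for sesn1, and LOC101885512, il34 and si:ch211-74m13.3 for phlda3. All groups enter these profiles, so a shared difference between FBSA and the rest makes entries near. Of these entries, cxcl18b, junbb and il34 are also on the inflammation list.

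The authors' deposited table, which lists 1909 genes with an FBSA q-value under 0.05, held 3 of the 9 members. Its log2 fold changes for FBSA over Control were 0.86 for eif4ebp3l (q-value 5.60e-08), 0.51 for tp53inp1 (q-value 1.25e-05) and 0.69 for cdkn1a (q-value 0.0207). The edgeR value of cdkn1a was 0.71 and passed only without PFPeA 1 and 42FTS 2 among the alternatives run. The authors' deposited table did not list gadd45aa or sesn1. As background for the 3 of 9 members, the authors' Gene Ontology table counted 1711 genes changed by FBSA among 20724 genes. On the authors' deposited TPM scale, which allows levels to be set between genes, eif4ebp3l was at 83.4 ± 21.0 TPM with FBSA and 47.6 ± 4.18 TPM in Control (SD, n = 3 each). On the same scale tp53inp1 was at 42.9 ± 1.58 TPM with FBSA and 31.2 ± 0.741 TPM in Control, and cdkn1a at 6.78 ± 1.72 TPM with FBSA and 4.37 ± 0.433 TPM in Control, the lowest level of these.

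The authors' deposited table of Gene Ontology terms for the genes changed by FBSA gave a q-value of 0.386 to cell cycle arrest (5 of 30 genes). It gave 0.125 to signal transduction by p53 class mediator (2 of 2 genes) and 0.224 to the DNA damage response through that mediator (2 of 3 genes). The authors' deposited table of transcription factors for the same genes placed p53 at rank 9 of 234 by p-value. Its ratio of observed to expected objects was 1.56 for p53 (211 objects), 1.46 for p63 (87 objects, rank 101) and 1.79 for p73 (31 objects, rank 125). These values came from the same FBSA libraries and are not independent of the counts above.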

How the data were processed

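Per the labels' protocols, mRNA of pooled whole embryos was captured on oligo(dT) beads and sequenced on a BGISEQ-500. The build GRCz11 and the tools HISAT2, Bowtie2, HTSeq, RSEM and DESeq2 are named, without roles, in the submitters' processing notes. Strand use in counting was not stated there or in the labels; overlapping genes and suffixed entries may share reads. The deposited count table held raw whole-number counts per gene entry. Lines naming no gene held 33.4% to 36.3% of reads and were left out. The authors' deposited table gave TPM, log2 fold changes and q-values per the file headers; 30 per-sample columns and 15 columns of averages were not used. The authors' deposited enrichment tables gave numbers of genes, p-values, q-values and a ratio of observed to expected objects.

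From the counts, edgeR 4.0.16 (R 4.3.3; TMM, filterByExpr, robust quasi-likelihood, group as the term, 15 libraries) tested 23874 entries in 10 comparisons and jointly, two-sided, with Benjamini-Hochberg adjustment and a threshold of 0.05. Log2 CPM used a prior count of 2. The fit was tested on simulated data. The SE is the log2 fold change divided by the square root of F, and the 95% interval reached 0.44 to either side of the value for the median entry. Alternatives were other scaling, no filter, only the groups compared, leaving out libraries, a replicate block, summed suffixed entries, a joint adjustment and DESeq2 1.42.0. Replicate numbers did not pair the libraries. Libraries were not duplicates of each other (mean chi-square per gene 10.1 to 20.3 within groups).

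The members and lists were chosen with earlier results of these data known. Named genes were the members, the genes of the first 4 lists called in any comparison, mdm4, the 3 largest called changes of each other list, and the 3 nearest profiles per member. Of 210 places on the lists, 195 held a tested gene, and the symbols aen and laptm5 were not matched. The genes pcna, sesn2 and ddit4 are counted on each list that holds them. Some list genes are not reported here by themselves. No sequence is shown.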

Additional observations from a re-analysis of the deposited data

How the results depend on the processing

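With FBSA against Control, eif4ebp3l (0.63 to 0.95 on the log2 scale, edgeR adjusted p up to 0.0469) and tp53inp1 (0.49 to 0.56, up to 0.0239) passed under all 25 alternatives. The 4 member calls became 2 (eif4ebp3l and tp53inp1) with library totals alone, with only the 2 groups, without Control 3 and 42FTS 2 together, with the replicate block and with the joint adjustment. The value of ccng1, 0.15, ranged from -0.44 to 0.62 with 1 library left out, and was below 0 without FBSA replicate 2 (-0.44) and without Control replicate 2 (-0.16). FBSA against PFBS had 2 member calls and 0 with the replicate block, which left 1 PFBS library that is assumed to vary like the others (eif4ebp3l 0.93, adjusted p = 0.062; tp53inp1 0.54, 0.0806). FBSA against PFPeA had 2 member calls, 0 with only the 2 groups, 4 without PFPeA 1 and 42FTS 2 together and 1 with the joint adjustment.

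Leaving out 1 library gave 2 to 5 member calls for FBSA against Control, 2 to 4 against PFBS, 1 to 3 against PFPeA, 2 to 4 against 42FTS and 1 to 2 for any difference. Over all entries it gave 1020 to 2274, 1159 to 2451, 785 to 1923 and 995 to 2336 calls for FBSA against Control, PFBS, PFPeA and 42FTS, 548 to 1519 for any difference (each lowest count without FBSA replicate 2), 0 to 1 for PFBS, 0 to 2 for PFPeA and 0 to 2 for 42FTS against Control, 0 to 3 for PFPeA against PFBS, and 0 to 1 for 42FTS against PFBS and against PFPeA.

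Over all entries, FBSA against Control had 2274 calls, 855 with only the 2 groups, 1228 without Control 3 and 42FTS 2 together and 1291 with the joint adjustment. FBSA against PFBS had 2422, and 934, 290 (replicate block) and 1364 with the joint adjustment. FBSA against PFPeA had 1971, and 438 and 1154. FBSA against 42FTS had 2339, and 788, 1509 without PFPeA 1 and 42FTS 2 together, 1339 without Control 3 and 42FTS 2 together, and 1303. Any difference had 1524, 970 with the replicate block and 3200 with DESeq2. From 0 calls, the joint adjustment gave 16, 20 and 18 for PFBS, PFPeA and 42FTS against Control, 37 for PFPeA against PFBS, 23 for 42FTS against PFBS and 39 for 42FTS against PFPeA, and DESeq2 gave 6, 15, 14, 15, 12 and 26. Only the 2 groups gave 1 (PFBS) and 4 (42FTS) against Control, 1 for 42FTS against PFBS and 2 for 42FTS against PFPeA; the replicate block gave 1 for PFBS against Control, PFPeA against PFBS and 42FTS against PFBS; no filter gave 1 for PFPeA, and leaving out Control 3 and 42FTS 2 gave 1 for 42FTS, against Control. The joint adjustment used the same p-values, pooled with those of the FBSA comparisons. This pooling loosens the cutoff for pairs without FBSA, so its calls there add no separate evidence of a difference. The cause of the other changes was not tested.

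Alternatives for the genes of the first 4 lists, on p53 and growth control, were chosen after seeing the data. Their 9 calls became 14 with suffixed entries added and 14 with DESeq2, and 8 to 12 without 1 library. Over all entries, leaving out 1 library gave 1020 to 2274 calls. Counts over all entries with suffixed entries added or with DESeq2 are not given here. The rise to 14 is therefore not read as particular to these lists. Calls of tp53bp2a were lost under 8 of 25 alternatives and of plk3 under 4. Same-numbered libraries did not deviate together (correlations -0.0639 to 0.0857 over 18 pairs), so the block is no paired test. At this depth and with 3 libraries per group, the 95% interval of the median entry reached 0.44 to either side, so smaller differences could often not be shown.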
